A study of Rattus norvegicus with 9 samples.

Results

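The genes of the DNA replication origin and fork machinery were a list of 48, chosen by function and matched to array probes by gene name or annotated accession. They comprised 15 genes of origin licensing, 6 of helicase activation, 9 of polymerases and primase, 13 of the sliding clamp, its loader and other fork partners, and 5 of nucleotide supply. Of the 48, 47 had a probe, 62 probes in all, and 61 of these probes were kept. Gins1, a subunit of the GINS helicase complex, had none and was not tested. All 47 measured genes entered a test of 22102 genes.

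The cells were pulmonary arterial smooth muscle cells, the contractile cells of lung artery walls, from male rats of the SD (Sprague Dawley) strain at culture generation 4. Total RNA was measured on 1-colour Agilent arrays in 3 groups of 3: hypoxia+quercetin, hypoxia alone and normoxia. Per the labels' protocols, hypoxia meant a sealed chamber at 1% oxygen, and cells were starved of serum and then held for 24 h in 10% serum with quercetin, a plant flavonol, or with 0.1% DMSO. They do not say whether the hypoxia and normoxia arrays used here came from cells given DMSO. The sources used here give no quercetin dose and do not say that replicates came from separate cultures. The p-values therefore rest on a spread between arrays that may be technical.

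DNA replication starts at origins marked by the origin recognition complex (ORC), onto which Cdc6 and Cdt1 load the MCM ring, the core of the replicative helicase. At the start of S phase Mcm10, Cdc45 and the GINS complex turn the ring into an active helicase, after which primase, the polymerases alpha, delta and epsilon, the clamp PCNA and its loader RFC copy the strands. In cycling cells many of these genes are transcribed near the passage from G1 to S under E2F factors. Growth of arterial smooth muscle cells is part of the thickening of lung arteries in chronic hypoxia.

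A level is the log2 of a probe's background-subtracted intensity minus the 75th percentile of its array, so that 0 equals that percentile. A change is the difference between 2 group means of such levels, given with its standard error over 3 arrays a group. A gene passed at a Benjamini-Hochberg adjusted p under 0.05 by limma over all 22102 genes, two-sided. Where a gene had several probes, the brightest was used. Groups whose arrays do not overlap were common among all genes tested. They made up 71.7% in hypoxia against normoxia, 71.1% in hypoxia+quercetin against hypoxia and 53.5% in hypoxia+quercetin against normoxia. Where groups of a single gene are said to lie apart, this describes its values and does not set it off from other genes.

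From 53.0% to 74.4% of probes were well above local background on an array, and no spot was saturated. Of the 47 genes, 42 were well above background on all 9 arrays. Orc1, Pola2, Pole, Pole2 and Tk1 were not so on every hypoxia array, and they passed the filter through groups in which they were brighter. Normoxia replicates 1 and 2 shared a slide and an earlier scan day. The slide of the 3 hypoxia arrays also carried normoxia replicate 3. All 3 hypoxia+quercetin arrays were on another slide, scanned on the same later day. Normoxia replicate 2 stood high in this gene list, with a median difference of 0.47 from the mean of normoxia replicates 1 and 3 and the highest normoxia level for 40 of 47 genes. Acta2 had no probe. Dim probes can pass the filter, and all 9 smooth muscle markers with a probe passed it. So did all 8 fibroblast markers, endothelial Cdh5 and Kdr, epithelial Krt7, Krt8 and Krt18, and leukocyte Ptprc, Cd68, Cd74, Lyz2 and Csf1r. Endothelial Pecam1, Tek, Vwf and Emcn, epithelial Epcam, Cdh1 and Krt19, and leukocyte Itgam and Cd3e did not.

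In hypoxia most of the replication genes were lower. Of 47, 29 fell, 5 rose and 13 did not pass, against 28.9% lower and 35.3% higher among all genes tested. The members' shares were 61.7% lower and 10.6% higher. Their median change was -0.50, against 0.10 over all genes, and their changes ran from -3.22 for Orc1 to 1.42 for Orc3. Among the called members, 15 differed at least 2-fold downward and 2 upward. The share of all genes at that size was not counted, so these counts have no background to be read against. With slide as a block, which sets the hypoxia arrays against normoxia replicate 3 alone, 17 genes were lower and 4 higher, with 21.3% lower and 22.8% higher among all genes in that fit, and all 34 genes called over all arrays kept their sign. The 13 that no longer passed were Mcm6, Gins2, Prim1, Pold1, Pole2, Rfc2, Pcna, Fen1, Rpa3, Rrm2, Tk1, Tyms and Dtymk. Rfc2, Rpa3 and Rrm2 also lost their call in at least 1 fit that left out a single array. Without normoxia replicate 2, 27 were lower and 8 higher, with 28.7% lower and 33.4% higher among all genes in that fit. Of the 42 members above background on all 9 arrays 26 were lower and 6 higher. Among all genes that met this filter 29.2% were lower and 41.7% higher.

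Hypoxic cells given quercetin had higher levels of most of these genes than hypoxic cells without it. Of 47, 32 rose, 4 fell and 11 did not pass, against 26.9% higher and 31.5% lower among all genes, and the median change was 0.68 against -0.08 over all genes. The members' shares were 68.1% higher and 8.5% lower. The 4 genes that fell were Orc3, Orc4, Rfc1 and Rfc3. Orc2, Pola2, Rfc3, Rfc5 and Tk1 lost their call in at least 1 fit that left out a single array, and the other 31 of 36 passed in all 9 such fits. This comparison uses the same hypoxia arrays as the first, so the members' values in both are given side by side and their opposite signs are no separate result. The arrays of these groups never shared a slide, and the effects of slide and of quercetin cannot be told apart.

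In hypoxia+quercetin against normoxia most of these genes did not pass. The hypoxia+quercetin arrays shared no slide with a normoxia array, so slide and group cannot be told apart here either. Of 47, 13 were higher, 1 was lower and 33 did not pass, with 23.0% higher and 21.3% lower among all genes, so the 27.7% of members that rose lay near the background. The median change was 0.20, against 0.04 over all genes, and the changes ran from -0.71 for Rrm2, which did not pass, to 0.78 for Pole. The count of higher genes depended on single arrays. It was 24 of 47 without normoxia replicate 2, with 23.2% higher among all genes in that fit. Without normoxia replicate 1 it was 8, with 18.8% of all genes. Without hypoxia+quercetin replicate 3 it was 7, with 17.3% of all genes. The nearness to the background thus did not hold without normoxia replicate 2. With scan day as a block, which leaves normoxia replicate 3 as the only normoxia array, 6 were higher and 1 lower, with 12.3% higher and 14.0% lower among all genes in that fit, and Orc5, Cdc6, Cdt1, Cdc45, Gins2, Pole and Lig1 no longer passed. Scaled to the labelling spike-in probes in place of the 75th percentile, none were higher and 10 of 47 were lower, with 7.63% higher and 44.4% lower among all genes on that scale.

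**Figure D1:**
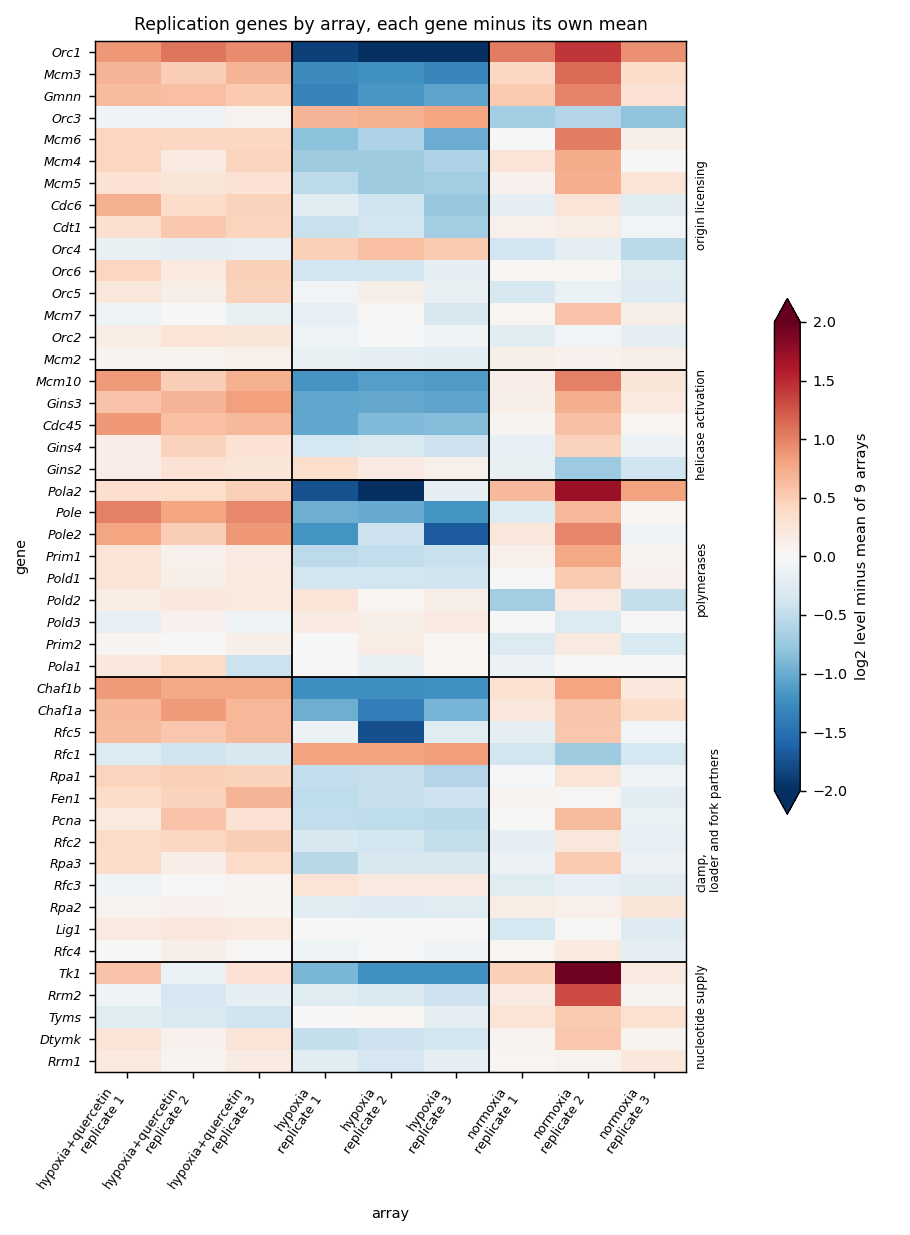
The log2 level of each of 47 genes (rows, by class) on each of 9 arrays (columns), minus the gene's mean over all arrays, from blue (lower) to red (higher). Most rows are blue on the 3 hypoxia arrays, Orc3, Orc4 and Rfc1 are red there, and normoxia replicate 2 is redder than its fellow normoxia arrays for 40 of 47 genes.

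**Figure D2:**
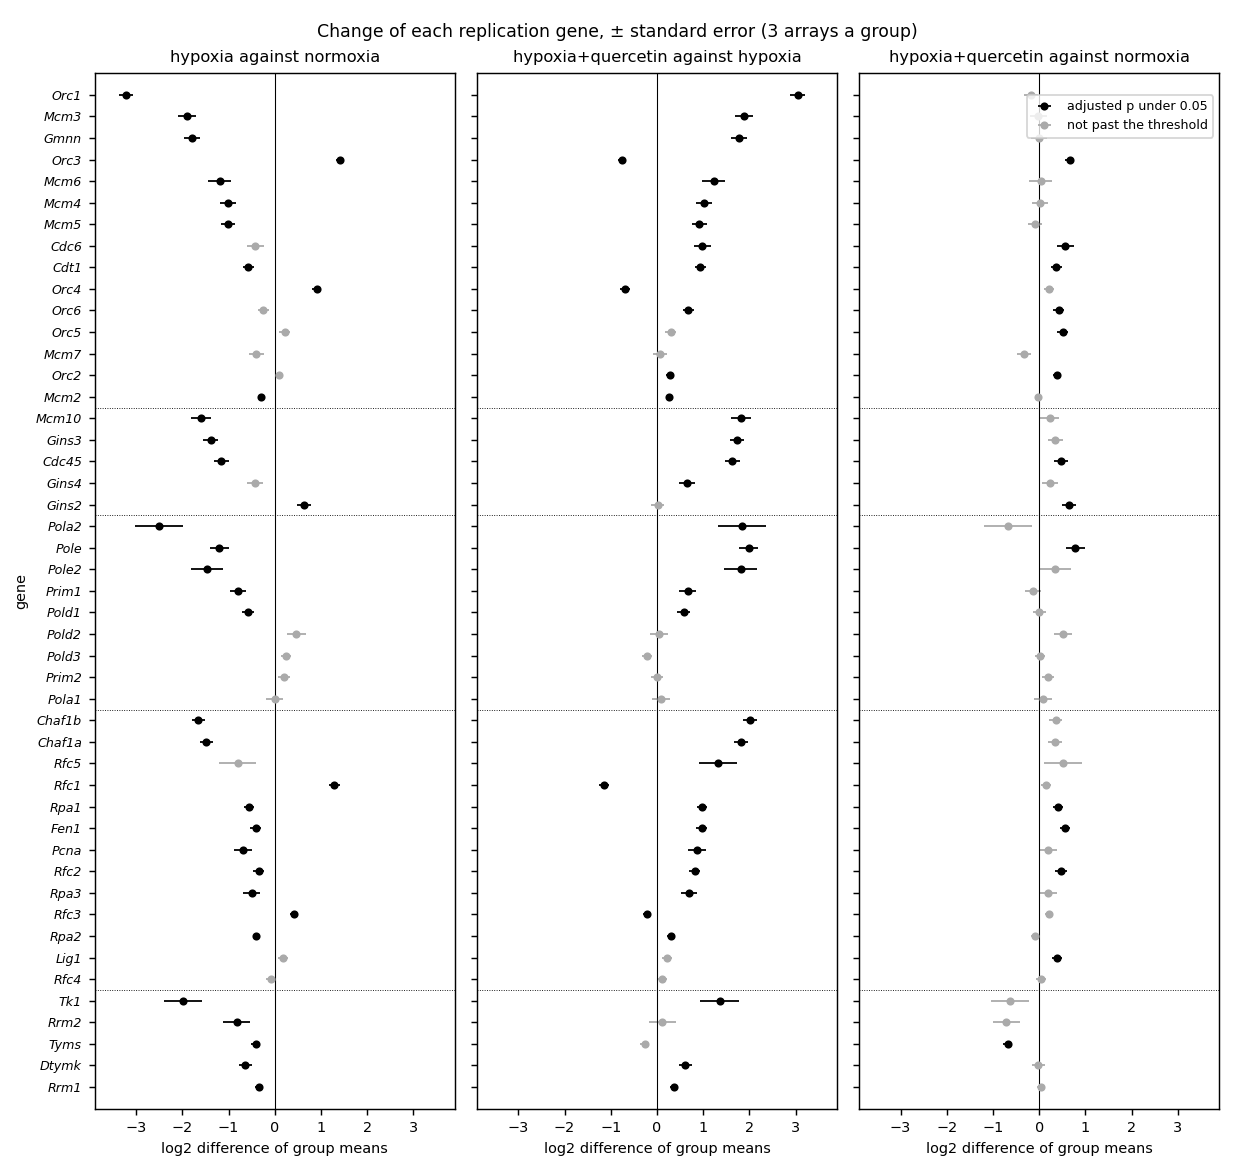
The log2 change of each gene with its standard error in the 3 comparisons, with 3 arrays a group. Black points passed at an adjusted p under 0.05 and grey ones did not, which leaves 29 black points below 0 and 5 above it for hypoxia against normoxia, 32 above and 4 below for hypoxia+quercetin against hypoxia, and 13 above and 1 below for hypoxia+quercetin against normoxia.

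Scaling matters for how these directions are read. The spike-in scale moved the median change of all genes in hypoxia against normoxia to -0.40, compared with 0.10 on the percentile scale, and that of the replication genes to -1.0. On it 39 of the 47 genes were lower in hypoxia and 3 higher, with 48.9% lower and 12.1% higher among all genes. In hypoxia+quercetin against hypoxia the all-gene median was 0.03, and 32 of the 47 genes were higher and 3 lower, with 29.4% higher and 25.7% lower among all genes. Against normoxia, the all-gene median of hypoxia+quercetin cells was -0.36 and that of the replication genes -0.21.

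Among the genes of origin licensing, 8 of 15 fell in hypoxia, 2 rose and 5 did not pass (median -0.42). In hypoxia+quercetin against hypoxia 11 of 15 were higher and 2 lower (median 0.92). In hypoxia+quercetin against normoxia 6 were higher and none lower (median 0.04). The shares of all genes given above are the background for this and the following classes. Orc1, the ORC subunit that hydrolyses ATP at origins, had the largest change of the 47. Its probe covers 60 bases on chromosome 5 in rn4, plus strand, chr5:129901584-129901643, and it carries the following sequence.
Orc1: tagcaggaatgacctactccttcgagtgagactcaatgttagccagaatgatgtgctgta
Orc1 lay at -1.11, -0.90 and -1.03 on the hypoxia+quercetin arrays, at -3.83, -4.24 and -4.10 in hypoxia and at -0.93, -0.54 and -1.05 in normoxia. The hypoxia arrays lie apart from both other groups, and those overlap each other. The change was -3.22 ± 0.16 in hypoxia against normoxia (adjusted p = 2.95e-06) and 3.04 ± 0.16 in hypoxia+quercetin against hypoxia (4.8e-06), and 2 of 3 hypoxia arrays were well above background. Between hypoxia+quercetin and normoxia it was -0.17 ± 0.16 (0.403).

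Of the 6 genes of the MCM ring, 5 fell in hypoxia, by unequal amounts. Mcm3 lay at 1.12, 0.92 and 1.11 in hypoxia+quercetin cells, at -0.85, -0.78 and -0.88 in hypoxia and at 0.85, 1.57 and 0.80 in normoxia. Only the hypoxia arrays stand apart, and normoxia replicate 2 is the highest of the 9. The changes were -1.91 ± 0.19 in hypoxia against normoxia (adjusted p = 6.24e-05) and 1.89 ± 0.19 in hypoxia+quercetin against hypoxia (8.45e-05). In hypoxia against normoxia Mcm6, Mcm4 and Mcm5 changed by -1.19, -1.01 and -1.01, and Mcm2 by -0.30 ± 0.07 (0.0064). Mcm7 changed by -0.40 and did not pass (0.0505). In hypoxia+quercetin against hypoxia the changes were 1.22 for Mcm6, 1.02 for Mcm4, 0.92 for Mcm5 and 0.27 for Mcm2, all past the threshold, and 0.06 for Mcm7, which was not. With slide as a block Mcm6 changed by -0.93 and no longer passed (0.063).

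Gmnn encodes geminin, which binds Cdt1 and keeps origins from being loaded again. It lay at -0.30, -0.34 and -0.42 in hypoxia+quercetin cells, at -2.27, -2.11 and -2.0 in hypoxia and at -0.42, 0.05 and -0.65 in normoxia. The hypoxia arrays were the lowest 3, and the other groups overlap. It changed by -1.78 ± 0.17 in hypoxia against normoxia (adjusted p = 4.78e-05) and by 1.77 ± 0.17 in hypoxia+quercetin against hypoxia (6.33e-05). Of the loading factors, Cdt1 changed by -0.57 ± 0.11 in hypoxia against normoxia (0.00255) and Cdc6 by -0.42 ± 0.18, which did not pass (0.0755). Both were higher with quercetin than in hypoxia, Cdt1 by 0.94 and Cdc6 by 0.98, and also than in normoxia, by 0.37 ± 0.11 (0.0277) and 0.56 ± 0.18 (0.0363). On the spike-in scale that last change of Cdt1 was -0.03 and did not pass.

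None of the other ORC subunits fell in hypoxia on the percentile scale. Orc3 was the largest change upward in hypoxia, and its levels and those of Rfc1 are given because they run against the list, a choice made after their values were seen. Orc3 lay at 0.82, 0.80 and 0.96 in hypoxia+quercetin cells, at 1.58, 1.60 and 1.68 in hypoxia and at 0.21, 0.31 and 0.08 in normoxia. None of the 3 groups overlap, and hypoxia+quercetin cells lie between. Orc3 changed by 1.42 ± 0.09 in hypoxia against normoxia (adjusted p = 7.73e-06), by -0.76 ± 0.09 in hypoxia+quercetin against hypoxia (2.06e-04) and by 0.66 ± 0.09 in hypoxia+quercetin against normoxia (7.38e-04). Orc4 changed by 0.91 ± 0.10 in hypoxia against normoxia (1.01e-04) and -0.69 ± 0.10 in hypoxia+quercetin against hypoxia (5.2e-04). Orc2, Orc5 and Orc6 did not pass in hypoxia against normoxia (0.10, 0.21 and -0.25), and against normoxia all 3 were higher in hypoxia+quercetin cells, by 0.38, 0.50 and 0.43. The further probe of Orc5 changed by -0.28 in hypoxia against normoxia and by 0.07 in hypoxia+quercetin against normoxia, neither past the threshold (adjusted p = 0.161 and 0.746), and with the mean of both probes the call of Orc5 was lost. On the spike-in scale Orc2 changed by -0.41 (0.0062) and Orc6 by -0.76 (0.0024) in hypoxia against normoxia, and Orc2 by -0.02 in hypoxia+quercetin against normoxia.

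**Figure D3:**
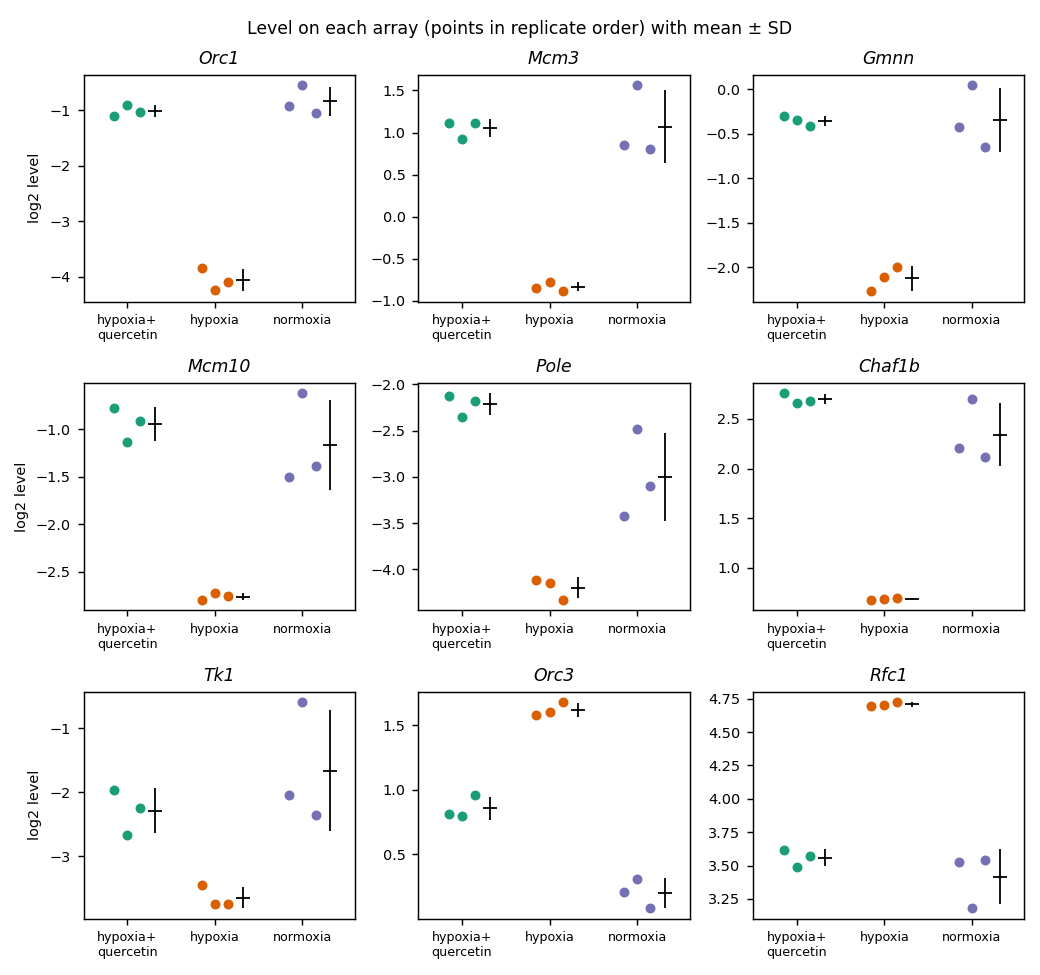
The log2 level of 9 genes on each array, hypoxia+quercetin left, hypoxia middle and normoxia right, with the mean and SD of the 3 arrays beside the points and a separate vertical scale for each gene. Hypoxia is the lowest group for 7 of the genes and the highest for Orc3 and Rfc1, and normoxia replicate 2 is the middle normoxia point.

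Of the 5 measured helicase activation genes, 3 fell in hypoxia, 1 rose and 1 did not pass (median -1.16), and with quercetin 4 were higher than in hypoxia and none lower (median 1.63). Mcm10, which helps to switch the loaded ring on, lay at -0.78, -1.13 and -0.92 in hypoxia+quercetin cells, at -2.80, -2.73 and -2.76 in hypoxia and at -1.50, -0.62 and -1.38 in normoxia. Its hypoxia arrays spread over less than 0.1 and lie apart from the rest. The changes were -1.60 ± 0.22 in hypoxia against normoxia (adjusted p = 3.17e-04) and 1.82 ± 0.22 in hypoxia+quercetin against hypoxia (1.87e-04). Gins3, a GINS subunit, lay at -1.76, -1.65 and -1.52 in hypoxia+quercetin cells, at -3.38, -3.36 and -3.39 in hypoxia and at -2.21, -1.61 and -2.15 in normoxia. It changed by -1.39 ± 0.16 (1.24e-04) in hypoxia against normoxia and 1.73 ± 0.16 (4.87e-05) in hypoxia+quercetin against hypoxia, again with only the hypoxia arrays apart.

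Cdc45, the helicase cofactor that joins MCM and GINS, lay at 3.19, 2.93 and 2.98 in hypoxia+quercetin cells, at 1.29, 1.45 and 1.47 in hypoxia and at 2.39, 2.92 and 2.38 in normoxia. No groups overlap, although hypoxia+quercetin replicate 2 and normoxia replicate 2 are nearly equal. It changed by -1.16 ± 0.16 in hypoxia against normoxia (adjusted p = 3.26e-04), by 1.63 ± 0.16 in hypoxia+quercetin against hypoxia (6.41e-05) and by 0.48 ± 0.16 in hypoxia+quercetin against normoxia (0.0378). Gins4 changed by -0.42 ± 0.17 in hypoxia against normoxia, which did not pass (0.0571), and by 0.65 ± 0.17 in hypoxia+quercetin against hypoxia (0.011). Gins2 was higher in both hypoxic groups than in normoxia, by 0.63 ± 0.15 in hypoxia (0.00572) and 0.64 ± 0.15 in hypoxia+quercetin cells (0.0079), and differed by 0.01 ± 0.15 between them (0.939). On the spike-in scale Gins2 changed by 0.12 in hypoxia and 0.24 in hypoxia+quercetin cells against normoxia, and neither passed. With slide as a block its change in hypoxia against normoxia was 0.60 and did not pass (0.058).

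Of the 9 polymerase and primase genes, 5 fell in hypoxia and none rose (median -0.58), and 5 were higher with quercetin than in hypoxia, none lower (median 0.58). Pola2, the second subunit of polymerase alpha, was dim. It lay at -4.53, -4.52 and -4.39 in hypoxia+quercetin cells, at -6.60, -7.28 and -5.05 in hypoxia and at -4.21, -3.13 and -4.05 in normoxia. The hypoxia levels were not well above background on any array, so only an approximate bound can be given there. By it Pola2 was 4.41-fold or more lower in hypoxia than in normoxia. It was 2.75-fold or more higher in hypoxia+quercetin cells, where 2 of 3 arrays measured it, than in hypoxia. The limma tests of the levels as measured gave adjusted p = 0.00316 and 0.0156. The bound takes each hypoxia array at the higher of the probe's own signal and the lowest signal of any probe well above background. That lowest signal was -7.25 on hypoxia replicate 1 and -5.59 on replicate 3. Pola2 lay above it on both without being well above background, so the bound is not strict.

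Pole and Pole2 encode subunits of polymerase epsilon, which copies the leading strand. Pole lay at -2.12, -2.35 and -2.18 in hypoxia+quercetin cells, at -4.12, -4.15 and -4.33 in hypoxia and at -3.42, -2.48 and -3.10 in normoxia. Its 3 groups do not overlap, with hypoxia+quercetin cells highest. The changes were -1.20 ± 0.21 in hypoxia against normoxia (adjusted p = 0.00143), 1.98 ± 0.21 in hypoxia+quercetin against hypoxia (1.12e-04) and 0.78 ± 0.21 in hypoxia+quercetin against normoxia (0.0174). Pole2 lay at -3.02, -3.31 and -2.95 in hypoxia+quercetin cells, at -5.01, -4.22 and -5.48 in hypoxia and at -3.59, -2.83 and -3.88 in normoxia. It changed by -1.47 ± 0.35 (0.00619) and 1.81 ± 0.35 (0.00249) in hypoxia against normoxia and in hypoxia+quercetin against hypoxia, and with slide as a block the first was -1.03 and did not pass (0.12). Each gene was well above background on 2 of 3 hypoxia arrays.

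Prim1, the catalytic primase subunit, changed by -0.80 ± 0.18 in hypoxia against normoxia (adjusted p = 0.00493) and 0.66 ± 0.18 in hypoxia+quercetin against hypoxia (0.0131). Pold1, the catalytic subunit of polymerase delta, changed by -0.58 ± 0.14 (0.00665) and 0.58 ± 0.14 (0.00714). With slide as a block neither passed in hypoxia against normoxia (-0.54 and -0.48). Pold2, Pold3 and Prim2 did not pass in any of the 3 comparisons. On the spike-in scale Pold3 changed by -0.26 in hypoxia against normoxia and by -0.38 in hypoxia+quercetin against normoxia, and both passed.

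Pola1, the catalytic subunit of polymerase alpha, was read by 2 probes whose values disagreed, so both are printed. The brighter lies at chrX:80810007-80810066 and the dimmer at chrX:80651404-80651463, both on the minus strand in rn4 and each 60 bases long.
Pola1, brighter probe: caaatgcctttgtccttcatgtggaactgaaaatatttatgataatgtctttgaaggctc
Pola1, dimmer probe: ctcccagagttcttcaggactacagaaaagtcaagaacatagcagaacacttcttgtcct
By the brighter probe Pola1 changed by -0.00 ± 0.19 in hypoxia against normoxia (adjusted p = 0.987) and 0.09 ± 0.19 in hypoxia+quercetin against hypoxia (0.7). The dimmer probe changed by -1.16 ± 0.34 (0.0172) and 1.31 ± 0.34 (0.0109), and it was well above background on 2 of 3 hypoxia+quercetin arrays, 2 of 3 hypoxia arrays and all normoxia arrays. For Pola1 no direction can be given.

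Further probes were compared for the other genes too. In all, 12 genes had 14 further kept probes, and of their 42 changes over the 3 comparisons 40 lay within 0.5 of the brightest probe's change and 36 had the same sign. Both that lay farther off belong to Pola1. That margin is wider than some called changes. The calls of Orc5 and Rrm1, and that of Fen1 in hypoxia against normoxia, were not met by their further probes.

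**Figure D4:**
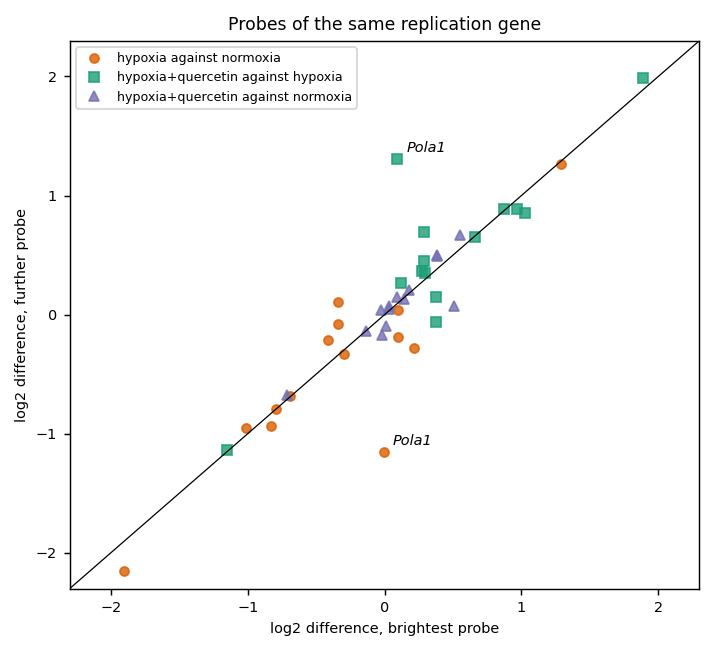
The log2 change by the brightest probe (horizontal) and by a further probe (vertical) of the same gene, for 14 further probes of 12 genes in the 3 comparisons, with the line of equal values. 40 of 42 points lie within 0.5 of the line, and the labelled pair belongs to Pola1.

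Of 13 genes of the clamp, its loader and fork partners, 8 fell in hypoxia, 2 rose and 3 did not pass (median -0.41). With quercetin 9 were higher than in hypoxia and 2 lower (median 0.82), and 4 were higher than in normoxia and none lower (median 0.34). The histone chaperone genes Chaf1b and Chaf1a, subunits of the CAF-1 complex that places histones behind the fork, changed most. Chaf1b lay at 2.76, 2.66 and 2.69 in hypoxia+quercetin cells, at 0.68, 0.69 and 0.69 in hypoxia and at 2.21, 2.70 and 2.12 in normoxia. Its hypoxia arrays are nearly equal and far below the rest. The changes were -1.66 ± 0.14 in hypoxia against normoxia (adjusted p = 3.05e-05) and 2.02 ± 0.14 in hypoxia+quercetin against hypoxia (1.59e-05). Chaf1a lay at 2.42, 2.62 and 2.44 in hypoxia+quercetin cells, at 0.80, 0.39 and 0.84 in hypoxia and at 2.00, 2.33 and 2.14 in normoxia. It changed by -1.48 ± 0.14 (5.42e-05) in hypoxia against normoxia and 1.82 ± 0.14 (2.52e-05) in hypoxia+quercetin against hypoxia.

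The subunits of the clamp loader RFC did not move together. Rfc1, the large subunit, lay at 3.62, 3.49 and 3.57 in hypoxia+quercetin cells, at 4.69, 4.70 and 4.73 in hypoxia and at 3.53, 3.18 and 3.54 in normoxia. The hypoxia arrays are the highest 3 and the other groups overlap. Rfc1 changed by 1.29 ± 0.11 in hypoxia against normoxia (adjusted p = 2.7e-05) and by -1.15 ± 0.11 in hypoxia+quercetin against hypoxia (6.29e-05), and its further probe by 1.27 and -1.13. Rfc5 lay at -0.77, -0.86 and -0.73 in hypoxia+quercetin cells, at -1.52, -3.16 and -1.63 in hypoxia and at -1.59, -0.86 and -1.46 in normoxia. Hypoxia replicate 2 lies far below its fellow arrays. Rfc5 changed by -0.80 ± 0.41 in hypoxia against normoxia, which did not pass (0.114), and by 1.32 ± 0.41 in hypoxia+quercetin against hypoxia (0.0223).

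Among the other RFC subunits Rfc2 changed by -0.35 ± 0.12 (adjusted p = 0.036), 0.82 ± 0.12 (6.88e-04) and 0.47 ± 0.12 (0.0151) in hypoxia against normoxia, hypoxia+quercetin against hypoxia and hypoxia+quercetin against normoxia. Rfc3 changed by 0.42 ± 0.08 (0.0019) in hypoxia against normoxia, but by -0.09 on the spike-in scale, and by -0.21 ± 0.08 (0.0436) in hypoxia+quercetin against hypoxia. Rfc4 passed in none of the 3 comparisons. Pcna, the sliding clamp, changed by -0.69 ± 0.19 (0.0134) in hypoxia against normoxia and by 0.87 ± 0.19 (0.00495) in hypoxia+quercetin against hypoxia, and with slide as a block the first was -0.39 and did not pass (0.23).

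Rpa1, Rpa2 and Rpa3 encode the complex that covers single strands, and they changed by -0.56, -0.40 and -0.50 in hypoxia against normoxia and by 0.97, 0.30 and 0.69 in hypoxia+quercetin against hypoxia. All 6 changes passed, while Rpa3 did not with slide as a block (-0.28, adjusted p = 0.39). Fen1, the nuclease that trims Okazaki fragments, changed by -0.41 ± 0.11 (0.0121), 0.97 ± 0.11 (1.77e-04) and 0.55 ± 0.11 (0.00485) in hypoxia against normoxia, hypoxia+quercetin against hypoxia and hypoxia+quercetin against normoxia. The further probe of Fen1 changed by -0.22 in hypoxia against normoxia and did not pass (0.123), while it passed in both other comparisons. Lig1, the ligase that joins the fragments, changed by 0.39 ± 0.10 (0.0167) in hypoxia+quercetin against normoxia, by -0.01 on the spike-in scale, and passed in neither other comparison.

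All 5 nucleotide supply genes fell in hypoxia (median -0.64), Rrm1 by 1 of its 3 probes, and with slide as a block the direction held for each but only Rrm1 passed. With quercetin 3 were higher than in hypoxia and none lower (median 0.38), and against normoxia 1 was lower and none higher (median -0.63). Tk1, thymidine kinase, lay at -1.96, -2.66 and -2.25 in hypoxia+quercetin cells, at -3.45, -3.74 and -3.74 in hypoxia and at -2.05, -0.59 and -2.35 in normoxia. Normoxia replicate 2 lies far above its fellow arrays, and 2 of 3 hypoxia arrays were well above background. Tk1 changed by -1.98 ± 0.41 in hypoxia against normoxia (adjusted p = 0.0033) and by 1.35 ± 0.41 in hypoxia+quercetin against hypoxia (0.0214). Without normoxia replicate 2 the first was -1.45 (0.001), and with slide as a block it was -1.30 and did not pass (0.076). The Tk1 probe is placed at chr3:109023260-109023319, minus strand, in rn4, while RefSeq puts the gene on chromosome 10 in GRCr8, so the probe is shown.
Tk1: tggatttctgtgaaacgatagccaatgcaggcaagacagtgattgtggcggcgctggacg

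Rrm2 and Tyms were the nucleotide supply genes that did not pass in hypoxia+quercetin against hypoxia. Rrm2, the small subunit of ribonucleotide reductase, lay at -1.08, -1.34 and -1.17 in hypoxia+quercetin cells, at -1.23, -1.29 and -1.41 in hypoxia and at -0.82, 0.30 and -0.94 in normoxia. The first 2 groups overlap and normoxia replicate 2 is again far above the others. Rrm2 changed by -0.83 ± 0.29 in hypoxia against normoxia (adjusted p = 0.0345) and by -0.43 (0.0094) without normoxia replicate 2, and by 0.12 ± 0.29 in hypoxia+quercetin against hypoxia (0.751). Its change of -0.71 ± 0.29 in hypoxia+quercetin against normoxia did not pass (0.0795).

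Tyms, thymidylate synthase, lay at 0.34, 0.29 and 0.19 in hypoxia+quercetin cells, at 0.59, 0.63 and 0.40 in hypoxia and at 0.87, 1.11 and 0.89 in normoxia. The 3 groups do not overlap and hypoxia+quercetin cells are lowest. Tyms was the 1 gene of 47 that was lower in hypoxia+quercetin cells than in normoxia, by -0.68 ± 0.10 (adjusted p = 0.0011), and with scan day as a block it changed by -0.62 (0.022). In hypoxia against normoxia it changed by -0.42 ± 0.10 (0.00789). Dtymk, thymidylate kinase, changed by -0.64 ± 0.14 (0.00391) in hypoxia against normoxia and 0.62 ± 0.14 (0.00521) in hypoxia+quercetin against hypoxia, and Rrm1, the large reductase subunit, by -0.34 ± 0.09 (0.00952) and 0.38 ± 0.09 (0.00674). Both further probes of Rrm1 missed the threshold, at -0.08 and 0.11 in hypoxia against normoxia (adjusted p = 0.445 and 0.665) and at 0.15 and -0.06 in hypoxia+quercetin against hypoxia (0.175 and 0.808). With the mean of its probes Rrm1 lost both calls.

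Promoter sequence was set beside these changes because E2F factors are the textbook regulators of this gene list. RefSeq promoter windows of GRCr8, 250 bases before to 50 after a gene's start, were at hand for 41 of the 48 genes. There was no entry for Orc1, Orc4, Cdc6, Mcm4, Gins4, Rpa3 and Rrm2. The windows were searched on both strands for the E2F-type octamers TTTGGCGC, TTTCCCGC, TTTGCCGC and TTTCGCGC. At least 1 was found in 19 of 41 windows (46.3%), against 716 of 33469 windows of all genes (2.1%). The median GC content was 60.0% in the members' windows and 51.7% in all windows. Matches on opposite strands can share bases at their GC-rich ends, as in Gins1, Mcm2, Mcm5 and Mcm6. For 8 of 40 measured genes the whole window lies inside the annotated gene, whose annotated start lies farther upstream.

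The octamers were not limited to genes that fell. They were in 11 of 25 windows of genes lower in hypoxia (44.0%), in 2 of 4 of genes higher in hypoxia and in 5 of 11 of genes that did not pass (45.5%). The stretches shown run from 150 bases before to 30 after the start, for 4 genes that fell in hypoxia (Mcm3, Mcm5, Mcm6 and Pole) and for 2 that rose (Orc3 and Rfc3), with the octamers in capitals. All are written 5′ to 3′ along the gene: Mcm3 at chr9:30733717-30733896 (minus strand), Mcm5 at chr19:13488663-13488842 (plus), Mcm6 at chr13:42404323-42404502 (minus), Pole at chr12:52053633-52053812 (minus), Orc3 at chr5:53977765-53977944 (minus) and Rfc3 at chr12:5836418-5836597 (plus).
Mcm3: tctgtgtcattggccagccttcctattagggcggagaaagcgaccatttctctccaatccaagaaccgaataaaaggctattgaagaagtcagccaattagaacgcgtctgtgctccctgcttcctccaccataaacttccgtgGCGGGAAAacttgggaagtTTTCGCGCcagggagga
Mcm5: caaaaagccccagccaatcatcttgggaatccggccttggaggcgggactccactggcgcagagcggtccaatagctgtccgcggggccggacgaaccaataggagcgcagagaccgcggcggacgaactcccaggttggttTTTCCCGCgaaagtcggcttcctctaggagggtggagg
Mcm6: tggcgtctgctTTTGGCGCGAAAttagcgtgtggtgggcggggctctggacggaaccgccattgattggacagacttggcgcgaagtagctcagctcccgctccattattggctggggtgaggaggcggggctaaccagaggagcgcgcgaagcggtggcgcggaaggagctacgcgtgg
Pole: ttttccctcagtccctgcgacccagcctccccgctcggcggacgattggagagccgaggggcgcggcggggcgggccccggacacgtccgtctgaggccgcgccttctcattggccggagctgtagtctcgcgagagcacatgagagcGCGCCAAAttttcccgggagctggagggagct
Orc3: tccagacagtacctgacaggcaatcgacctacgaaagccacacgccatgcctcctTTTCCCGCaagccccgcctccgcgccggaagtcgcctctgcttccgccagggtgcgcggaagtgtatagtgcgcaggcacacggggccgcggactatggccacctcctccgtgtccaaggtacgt
Rfc3: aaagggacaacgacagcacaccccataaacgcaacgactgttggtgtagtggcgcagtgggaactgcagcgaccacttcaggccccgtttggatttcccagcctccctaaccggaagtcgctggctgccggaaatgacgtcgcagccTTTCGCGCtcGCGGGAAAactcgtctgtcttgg
In Mcm3 the matches begin 6 bases before and 14 bases after the start, and in Mcm6 both overlap in 1 run that begins 139 bases before it. The Orc3 match begins 95 bases before the start. A match here is a string of letters and does not show that a factor binds.

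**Figure D5:**
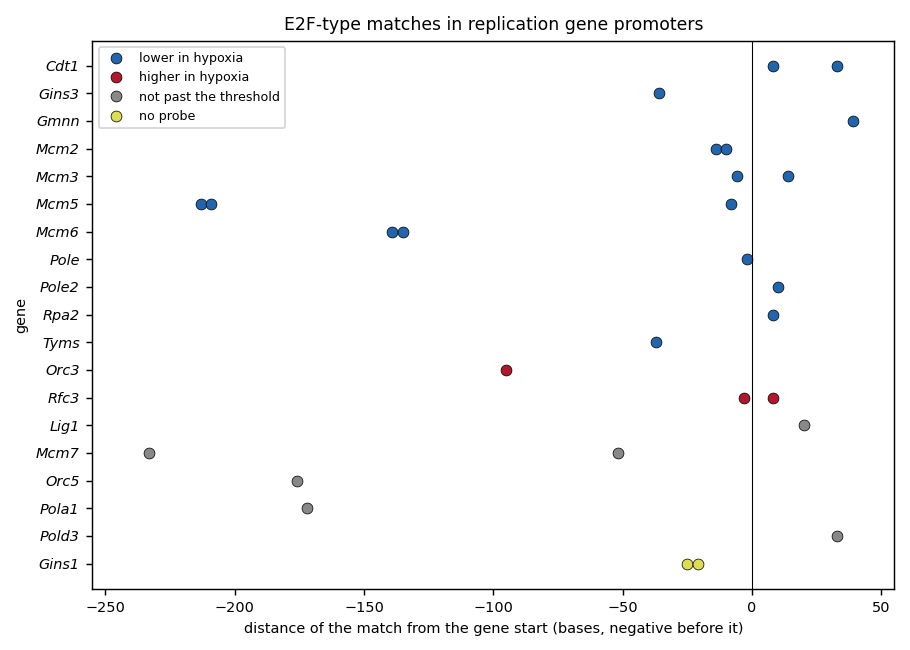
The distance in bases from the gene start to the first base of each E2F-type octamer on either strand in the 19 promoter windows that hold one, coloured by the gene's call in hypoxia against normoxia. Genes that fell (11), rose (2) or did not pass (5) all hold matches, and Gins1 had no probe.

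Other short motifs were searched on both strands in the same windows. CCAAT was in 58.5% of the members' windows against 37.5% of all, and the core of the hypoxia response element, ACGTG or GCGTG, in 75.6% against 41.6%. CCAAT was in 16 of 25 windows of genes lower in hypoxia, 3 of 4 of genes higher and 4 of 11 of genes that did not pass. ACGTG or GCGTG was in 21 of 25 windows of genes lower in hypoxia, 3 of 4 of genes higher and 7 of 11 of genes that did not pass. TTTGAA, the cell cycle genes homology region of G2 and M phase genes, was in 4 of 41 windows (9.8%) against 18.3% of all. It was in 4 of 25 windows of genes lower in hypoxia (16.0%), 0 of 4 of genes higher and 0 of 11 of genes that did not pass. Base composition differed between the sets, and its part in these shares was not tested.

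A further list held 68 other genes of replication and G1/S entry, of which 61 were tested. In hypoxia 32 of them fell, 8 rose and 21 did not pass (median -0.56). That is 52.5% lower and 13.1% higher, against 28.9% and 35.3% of all genes. With quercetin 32 were higher than in hypoxia and 7 lower (median 0.45), or 52.5% and 11.5%, against 26.9% and 31.5% of all genes. Against normoxia 16 were higher and 15 lower with quercetin (median 0.07). Those shares of 26.2% and 24.6% lay near the 23.0% and 21.3% of all genes. E2f1, an activating E2F, lay at 2.40, 2.23 and 2.39 in hypoxia+quercetin cells, at 0.06, 0.02 and 0.11 in hypoxia and at 0.89, 1.65 and 0.88 in normoxia. The 3 groups do not overlap. Its changes were -1.08 ± 0.19 in hypoxia against normoxia (adjusted p = 0.00156), 2.28 ± 0.19 in hypoxia+quercetin against hypoxia (3.65e-05) and 1.2 ± 0.19 in hypoxia+quercetin against normoxia (0.00153). The repressor E2f8 changed by -3.61 ± 0.33 in hypoxia against normoxia and by 2.69 ± 0.33 in hypoxia+quercetin against hypoxia, and E2f4 by -1.60 ± 0.08 and 1.46 ± 0.08.

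Pclaf, a PCNA-binding protein, lay at 3.27, 2.69 and 2.94 in hypoxia+quercetin cells, at 0.00, 0.13 and 0.25 in hypoxia and at 3.40, 4.30 and 3.28 in normoxia. It changed by -3.53 ± 0.27 in hypoxia against normoxia (adjusted p = 1.57e-05) and by 2.84 ± 0.27 in hypoxia+quercetin against hypoxia (5.58e-05). The histone chaperone Nasp changed by -2.10 and 1.34 in those comparisons, the fork protein Wdhd1 by -2.04 and 2.86, and Dut, which keeps uracil out of DNA, by -1.58 and 1.36, all past the threshold. Uhrf1, which serves to copy DNA methylation behind the fork, lay at -4.26, -4.25 and -4.37 in hypoxia+quercetin cells, at -4.68, -5.34 and -5.73 in hypoxia and at -3.52, -3.0 and -3.43 in normoxia. Only 1 of 3 hypoxia arrays was well above background there, so no size is given for its difference. E2f8 and Wdhd1 were well above background on 2 of 3 hypoxia arrays.

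The cyclins that drive entry into S phase parted. Ccne1 lay at 2.89, 2.73 and 2.82 in hypoxia+quercetin cells, at 0.13, 0.17 and 0.21 in hypoxia and at 2.02, 2.69 and 2.09 in normoxia. Ccne2 lay at -0.30, -0.68 and -0.38 in hypoxia+quercetin cells, at 0.20, 0.17 and 0.19 in hypoxia and at -1.80, -1.60 and -1.84 in normoxia. Hypoxia is the lowest group for Ccne1 and the highest for Ccne2. In hypoxia against normoxia Ccne1 changed by -2.10 ± 0.17 (adjusted p = 1.97e-05) and Ccne2 by 1.93 ± 0.12 (6.03e-06). In hypoxia+quercetin against hypoxia they changed by 2.64 and -0.64. The S and G2 cyclin Ccna2 and the topoisomerase Top2a were lower in hypoxia+quercetin cells than in normoxia, by -1.56 ± 0.11 (2.9e-05) and -1.21 ± 0.12 (1.23e-04), as was the folate enzyme Shmt1 by -1.46 ± 0.11 (3.52e-05). Upward in hypoxia stood Asf1b, a histone chaperone, at 1.61 ± 0.10 (7.15e-06), Tfdp2, a partner of E2F factors, at 1.40 ± 0.15 (8.62e-05), and Pold4, a small polymerase delta subunit, at 1.04 ± 0.08 (1.79e-05).

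Markers of cell types moved between the same groups. The summed level of 9 smooth muscle markers, on a linear scale relative to the 75th percentile, was 118 to 141 in hypoxia+quercetin cells, 342 to 363 in hypoxia and 156 to 231 in normoxia, and 6 of 9 were higher in hypoxia than in normoxia. The sum of epithelial markers took in all 6 with a probe, of which 3 were tested. It was 7.37 to 8.98 in hypoxia+quercetin cells, 39.4 to 46.8 in hypoxia and 3.70 to 5.44 in normoxia. For 8 fibroblast markers it was 812 to 960 in hypoxia+quercetin cells, 1204 to 1311 in hypoxia and 842 to 898 in normoxia. Col1a1, Col3a1 and S100a4 carry that sum, and the 8 genes did not move together. In hypoxia against normoxia 3 were higher and 3 lower, with changes of -4.24 for Dcn, -3.62 for Lum and -1.45 for Fap, and in hypoxia+quercetin against normoxia 6 were lower and 1 higher. For 7 leukocyte markers (5 tested) the sum was 1.38 to 1.65 in hypoxia+quercetin cells, 1.89 to 2.08 in hypoxia and 1.19 to 1.51 in normoxia. For 6 endothelial markers (2 tested) it was 0.126 to 0.149 in hypoxia+quercetin cells, 0.163 to 0.206 in hypoxia and 0.120 to 0.149 in normoxia. The part of these shifts, and of any difference in the share of dividing cells, in the replication gene changes was not tested. In bulk RNA, fewer cells that express a gene and less of its RNA per cell cannot be told apart.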

How the data were processed

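Total RNA of 9 samples, 3 per group by their labels, was measured on 1-colour arrays. Per the file headers, Agilent Feature Extraction 10.7.3.1 gave each spot's intensity with the background already subtracted. The labels name a microRNA labelling kit, while the scanner protocol and probes are for messenger RNA. The deposited table of log2 values, for which the steps are not given in the sources used here, served only as an alternative.

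Control spots (1639) were left out and 71 to 148 outlier spots per array set missing. The log2 intensity minus each array's 75th percentile was taken, and a probe was kept when every array of 1 group or more had it well above background, which left 26665 of 41012. Of the 41012 probes 18507 were named by accession, 2900 by symbol and 386 by synonym through RefSeq (GRCr8). Each of 22102 genes was taken from its brightest probe. Group means were fitted over the 9 arrays together with limma 3.58.1 in R 4.3.3, with 6 residual degrees of freedom. The number of arrays limits the precision. The fit was also run on simulated data with independent noise for each gene. Such data do not imitate shifts that many genes share on an array or slide.

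The members, lists and tests were chosen with earlier results of these data known. All 48 members are reported, with levels by array for the 3 of each class whose group means differed most, and other replication genes are named from those that passed with a change of at least 1. Alternatives were normexp background correction (offset 50) with quantile normalization, quantile normalization alone, spike-in scaling with 6 probes, other probe filters, the mean of a gene's probes, the deposited values, replicate, slide and scan day blocks, and leaving out each array. Python 3.11.15, pandas 2.3.3 and matplotlib 3.10.9 served for tables and figures.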

Additional observations from a re-analysis of the deposited data

How the results depend on the processing

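Counts of members past the threshold kept within 1.5 times the reported count under the alternatives run, apart from the following and from fits that leave out an array. With slide as a block, 17 in place of 29 members were lower in hypoxia than in normoxia, and with scan day as a block 6 in place of 13 were higher in hypoxia+quercetin cells than in normoxia. With spike-in scaling, 3 in place of 5 were higher in hypoxia than in normoxia, and in hypoxia+quercetin against normoxia 0 in place of 13 were higher and 10 in place of 1 lower. The block fits rest on normoxia replicate 3 alone, and the scan day block does not separate slide from group. The spike-in scale also turned signs. In hypoxia against normoxia the called Rfc3 was -0.086 there, and Orc2, Pold3 and Lig1, not called on the percentile scale, were -0.41, -0.26 and -0.33. In hypoxia+quercetin against normoxia the called Orc2, Cdt1 and Lig1 were -0.0195, -0.032 and -0.0135, and Pold3, Rfc4 and Rrm1, not called on the percentile scale, were -0.38, -0.37 and -0.37. The cause was not tested.

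Leaving out each array in turn gave 26 to 32 members lower and 5 to 8 higher in hypoxia against normoxia. Among all genes 26.1% to 29.4% were lower and 29.5% to 35.7% higher. In hypoxia+quercetin against hypoxia 30 to 33 members were higher and 3 to 5 lower, with 23% to 29% and 25.9% to 34.4% of all genes. In hypoxia+quercetin against normoxia 7 to 24 were higher and 1 to 2 lower, with 17.3% to 24.2% and 17.4% to 21.5% of all genes. Beyond 1.5 times lay 8 higher in hypoxia against normoxia without normoxia replicate 2, and in hypoxia+quercetin against normoxia 24 higher without normoxia replicate 2, 8 without normoxia replicate 1, 7 without hypoxia+quercetin replicate 3, and 2 lower without normoxia replicate 2 or 3. Of the called members, 31 of 34 in hypoxia against normoxia, 31 of 36 in hypoxia+quercetin against hypoxia and 7 of 14 in hypoxia+quercetin against normoxia passed in every one of these 9 fits. The call of Rfc3 in hypoxia+quercetin against hypoxia was lost in most of the alternatives, among them all fits without an array other than the one without normoxia replicate 2. No pairing by replicate number was seen. Same-numbered arrays deviated from their group means with correlations of -0.27 to 0.02, and other pairs of arrays with -0.09 to 0.25. With 3 arrays a group these correlations cannot show whether same-numbered arrays shared a culture or a day. With the replicate block 29 members were lower and 5 higher in hypoxia against normoxia, with 27% lower and 32.7% higher among all genes. In hypoxia+quercetin against hypoxia 32 were higher and 3 lower, with 24.9% and 29.2% of all genes. In hypoxia+quercetin against normoxia 12 were higher and 1 lower, with 19.7% and 18.7% of all genes. The signal over background limits Pola2 in hypoxia to an approximate bound.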
